A study of Mus musculus with 4 samples.

Results

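The genes of store-operated calcium entry and 3 canonical TRP channels were examined in mouse trigeminal ganglion: Stim1, Stim2, Orai1, Orai2, Orai3, Trpc1, Trpc4 and Trpc6. They were taken by name from the deposited expression table, where they are 8 of 56035 gene rows. The trigeminal ganglion holds the cell bodies of sensory neurons of the face together with their glia. The K823R group carried an allele of Trpv1 (K823R), described as transgenic in the genotype label and as a knock-in in the protocol. The WT group was littermate controls. Both groups were male C57BL/6 mice aged 8 weeks, with 2 libraries each, and the protocol names 2 pairs of ganglia without saying how animals fall into libraries. The p-values below therefore measure the spread between these libraries, which may be technical. The series concerns TRPV1 SUMOylation, itch and the H1 histamine receptor, and the comparison asks whether ganglion transcripts differ between mice with and without the allele.

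Receptors that signal through Gq, the H1 histamine receptor among them, lead to release of calcium from the endoplasmic reticulum (ER). STIM proteins sit in the ER membrane and sense the fall in stored calcium with a luminal EF hand, then gather at contacts with the plasma membrane and open Orai channels, which refill the cell with calcium. Canonical TRP (TRPC) channels are non-selective cation channels opened downstream of phospholipase C, and some of them have been tied to store depletion. In sensory neurons this entry shapes calcium signals and excitability.

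Levels are given as TPM, a measure of transcript abundance scaled for gene length and library size, on which different genes can be set beside each other. Read totals cannot be recovered from it, and sequencing depth is unknown. Between 21838 and 22119 genes had a value above 0 in each of the 4 libraries. Trpv1, whose codon was changed, stood at 40.9 and 35.01 TPM in K823R and at 39.2 and 30.6 TPM in WT, which overlap, and its level does not test the codon change. All 10 sensory neuron markers reached 1 TPM in every library, with sums of 14142 and 13550 TPM in K823R and 14639 and 12736 TPM in WT. Other cell types differed between libraries. Oligodendrocyte and astrocyte markers summed to 275 and 322 TPM in K823R, against 19.8 TPM in WT replicate 1 and 224 TPM in WT replicate 2. Fibroblast and meningeal markers summed to 2917 and 914 TPM in K823R and to 346 and 1084 TPM in WT. In K823R replicate 1 most of that sum was Ptgds, at 2374 and 472 TPM in K823R and 109 and 577 TPM in WT. The markers of this list did not share an order of libraries. Dcn (304 TPM) and Lum (41.2 TPM) were highest in WT replicate 2, whereas Mgp (141 TPM) was highest in K823R replicate 1. Macrophage markers summed to 89.1 and 118 TPM in K823R and to 53.7 and 85.8 TPM in WT. For Schwann cells the sums were 14133 and 16853 TPM in K823R and 11455 and 14230 TPM in WT. Sums for satellite glia ran from 11107 to 12389 TPM, for pericytes and smooth muscle from 97.8 to 117 TPM, for endothelium from 58.3 to 80.3 TPM and for skeletal muscle from 1.32 to 2.52 TPM. No marker of these lists was at 0 in every library. T cells are a cell type known for strong store-operated entry. Of 6 T cell markers 1 reached 1 TPM in every library, and their sums stayed between 2.99 and 4.18 TPM. That marker was Lck, at 2.14 to 3.23 TPM, which made up most of each sum. Cd3e, Cd3d, Cd3g, Cd4 and Cd8a lay between 0 and 0.63 TPM. In bulk tissue, fewer cells of a type and less RNA per cell cannot be told apart.

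All 8 genes were detected in every library and passed the filter of a mean of 1 TPM, in an order that largely held from library to library. Averaged over the 4 libraries, Stim1 was the highest at 26.3 TPM and Orai2 next at 23.1 TPM. Orai3 followed at 17.2 TPM, Stim2 at 16.4 TPM, Trpc1 at 13.6 TPM and Orai1 at 12.7 TPM. Trpc6 at 5.66 TPM and Trpc4 at 2.00 TPM were the lowest. Stim1 lay above Orai2 within each of the 4 libraries, although their ranges touched at 24.8 TPM. Trpc1 and Orai1 also overlapped, and Trpc1 was the higher of the pair in 3 of 4 libraries. The ranges of the other neighbours in this order did not overlap. Among the 15390 genes that averaged 1 TPM or more, Stim1 stood at the 64.3 percentile of level and Trpc4 at the 10.4 percentile.

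**Figure D1:**
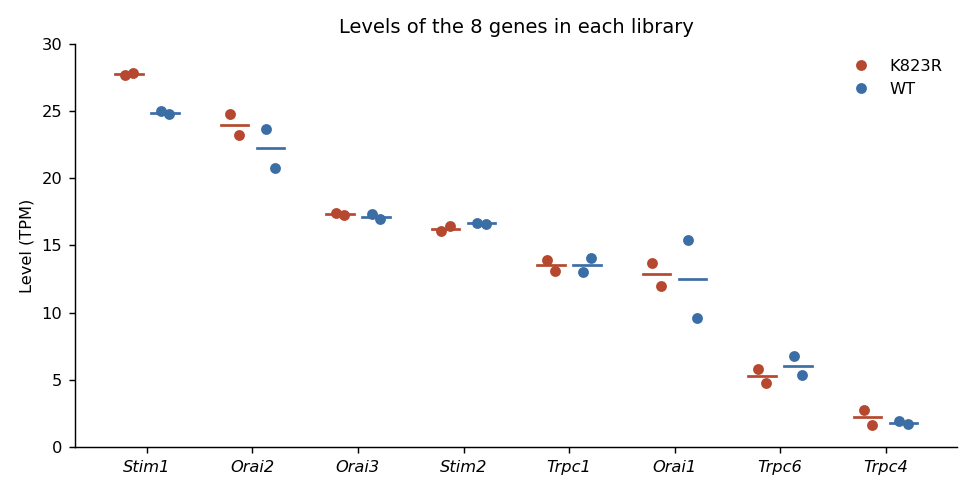
Level in TPM (vertical axis) of each gene in each library; points are libraries, short lines the mean of 2 libraries, K823R left of WT. Stim1 lies at 27.7 and 27.8 TPM in K823R against 25 and 24.8 TPM in WT, while Orai1 is spread from 9.57 to 15.4 TPM within WT.

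No gene of the set passed the test between genotypes. With limma on log2(TPM + 1) over all 15390 genes, 0 of 8 had an adjusted p below 0.05 and 0 of 8 an unadjusted p below 0.05. Over all genes tested, 0.00650% passed the adjusted threshold (1 gene) and 4.76% had an unadjusted p below 0.05. Adjusted p for the 8 genes ran from 0.918 to 0.998. Of the 8 differences, 5 were above 0 in K823R and 3 below, and 57.4% of all genes tested were above 0. The median difference was 0.04 on the log2 scale, beside 0.026 over all genes tested. The background itself moved with scaling and with single libraries. Under quantile scaling 49.2% of all genes were above 0 (median -0.0028). The share was 49.2% with WT replicate 2 left out (median -0.0022) and 50.6% with K823R replicate 1 left out (median 0.0024). With K823R replicate 2 left out it was 60.2% (median 0.046), and with WT replicate 1 left out 59.9% (median 0.050). The groups did not overlap for 2 of the 8 genes, against 34.0% of all genes tested. Stim1 was higher in both K823R libraries, as were 19.4% of all genes tested, and Stim2 was lower in both, as were 14.6%.

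**Figure D2:**
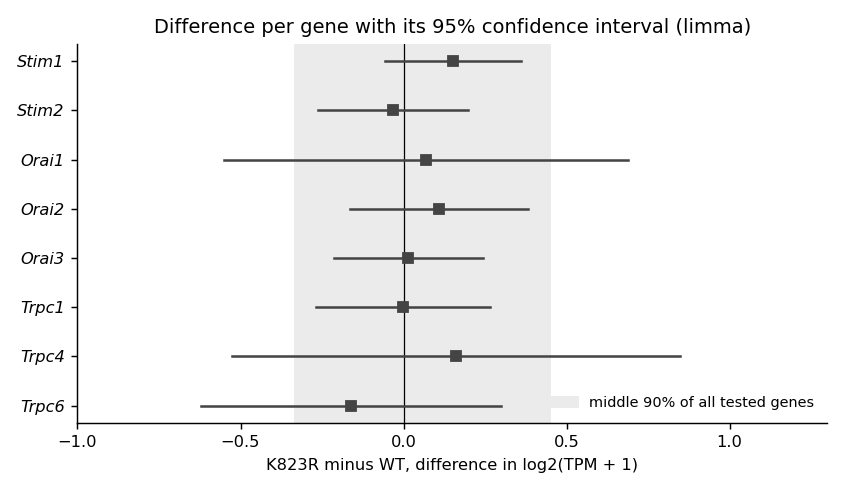
K823R minus WT difference in log2(TPM + 1) (horizontal axis) for each gene, with its 95% confidence interval from limma; the grey band spans the middle 90% of all tested genes. Every interval includes 0, from the narrow interval of Stim1 (-0.058 to 0.36) to the wide one of Trpc4 (-0.53 to 0.85).

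Of the calcium sensors, Stim1 was the gene of the set with the smallest p. STIM1 is the principal ER sensor that gates Orai channels. Stim1 (ENSMUSG00000030987, chr7:102267806-102437319 on the plus strand, GRCm38) stood at 27.7 and 27.8 TPM in K823R and at 25 and 24.8 TPM in WT. Both K823R libraries were above both WT libraries, and the replicates of each group were nearly equal. This gave a log2 difference of 0.15 (standard error, SE, 0.080; 95% interval -0.058 to 0.36; limma adjusted p = 0.918). On the (TPM + 1) scale this is a ratio of 1.11, with an interval of 0.961 to 1.28. The gene's own standard deviation between replicates was 0.0073 on the log2 scale, lower than in all but 0.390% of genes tested, and limma drew it towards that of genes of similar level. The size of the difference was unremarkable, at the 64.7 percentile of absolute differences over all genes tested, and 1869 genes had a p as small or smaller. The difference lay between 0.145 and 0.157 with any single library left out. It was smaller under other scalings, at 0.135 with upper-quartile and 0.118 with quantile scaling. Macrophage, oligodendrocyte and astrocyte marker sums were likewise higher in both K823R libraries, and their part in the result was not tested.

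STIM2 is a weaker activator of Orai channels that responds to small falls in stored calcium and helps to set resting calcium. Stim2 (ENSMUSG00000039156, chr5:53998499-54121057, plus strand) stood at 16.1 and 16.4 TPM in K823R and at 16.7 and 16.6 TPM in WT. The K823R libraries were the lower pair, without overlap, by a margin smaller than the spread within K823R. It differed by -0.033 on the log2 scale (SE 0.088, 95% interval -0.26 to 0.20, limma adjusted p = 0.977), -0.018 with K823R replicate 1 left out and -0.066 under quantile scaling. Stim1 made up 63.3% and 62.9% of the summed STIM transcripts in K823R, against 60.0% and 59.9% in WT. Shares were compared for all 8 genes within their families. For Stim1 the difference was 3.14 percentage points, 2.95 to 3.33 with a library left out, and the exact two-sided permutation test gave p = 0.333, the smallest that 2 libraries against 2 can give. The sum of both sensors was 43.7 and 44.2 TPM in K823R and 41.7 and 41.4 TPM in WT.

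The promoters of this pair were chosen for printing because their libraries did not overlap, as was so for 34.0% of all genes tested. The letters are reference sequence, the same for both groups, and were not tested against the difference between genotypes. RefSeq sequence (GRCm38.p6) from 250 bases before to 50 after the start is printed 5′ to 3′ along the transcribed strand. Capitals mark the GC box GGGCGG on either strand, the sequence known to bind Sp1-type factors. The Stim1 window is chr7:102267569-102267868 and the Stim2 window chr5:53998273-53998572, both on the plus strand.
Stim1: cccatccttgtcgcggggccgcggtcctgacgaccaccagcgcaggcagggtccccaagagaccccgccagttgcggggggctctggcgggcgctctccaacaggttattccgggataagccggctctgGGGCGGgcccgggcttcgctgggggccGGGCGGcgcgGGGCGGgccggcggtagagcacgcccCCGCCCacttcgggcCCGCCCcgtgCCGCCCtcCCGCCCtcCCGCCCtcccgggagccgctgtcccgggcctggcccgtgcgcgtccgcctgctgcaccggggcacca
Stim2: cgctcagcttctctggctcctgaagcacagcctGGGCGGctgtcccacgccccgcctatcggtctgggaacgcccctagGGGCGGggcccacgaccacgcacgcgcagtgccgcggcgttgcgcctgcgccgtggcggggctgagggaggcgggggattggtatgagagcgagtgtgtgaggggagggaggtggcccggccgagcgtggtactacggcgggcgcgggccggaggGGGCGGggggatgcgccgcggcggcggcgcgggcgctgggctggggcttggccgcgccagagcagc
The Stim1 window holds 8 GC boxes and the Stim2 window 3, and 35.7% of 32851 such mouse windows hold at least 1. All 8 genes had a window in the RefSeq table. GC boxes numbered 3 for Orai1, Trpc1 and Trpc4, 2 for Orai2, 1 for Orai3 and 0 for Trpc6. The TATA box letters TATAAA, on either strand, were found in the Trpc4 window alone and in 13.6% of all windows. GC content ran from 57.7% for Orai3 to 78.7% for Stim1, beside a median of 52.7% over all windows. CpG sites stood at 0.44 (Orai3) to 1.00 (Orai1) of the number that base composition predicts, beside a median of 0.38. The E box CACGTG occurred 2 times in the Orai2 window and in no other of the 8, and 7.2% of all windows hold it. GC boxes, TATA boxes and E boxes shared no bases in these windows. Such matches describe the letters and show no binding.

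**Figure D3:**
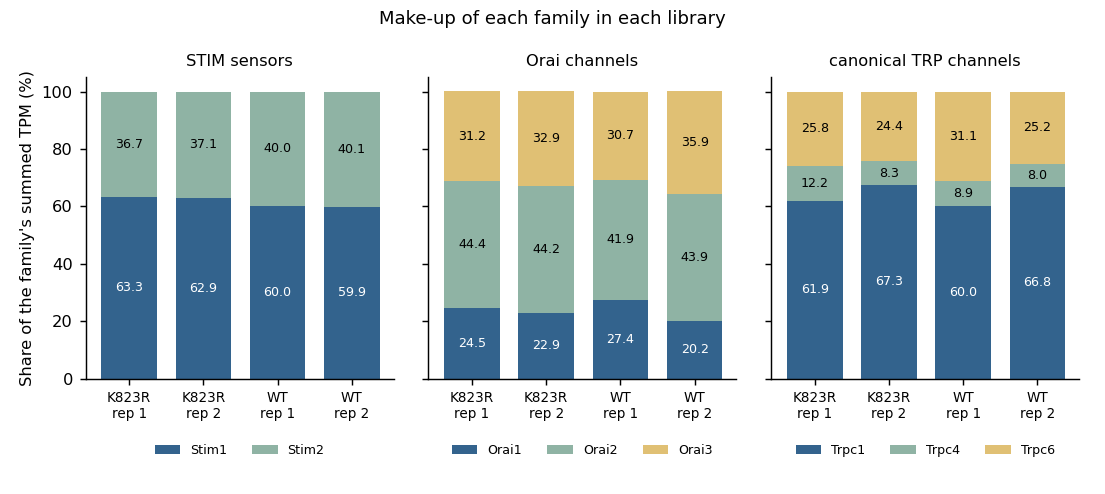
Share of each family's summed TPM in percent (vertical axis) held by each gene, 1 bar per library, K823R bars left of WT bars. Stim1 holds 63.3% and 62.9% of the STIM sum in K823R against 60.0% and 59.9% in WT, while the Orai1, Orai3 and TRPC shares overlap between genotypes.

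Orai genes encode the pore subunits of the store-operated channel, and the 3 are alike enough in sequence that their separate counting needs a check. Coding sequences in GENCODE M21 were 71.2% identical for Orai1 and Orai2, 70.2% for Orai1 and Orai3, and 70.5% for Orai2 and Orai3. The longest run shared without mismatch was 29 bases, between Orai2 and Orai3, far under the read length of 150 bases given in the protocol. That run lies in the part that codes for the first membrane-spanning helix, known to line the pore. It is shown with 15 bases on either side and with the matching stretch of Orai1, as coding bases 283 to 341 of Orai1, 241 to 299 of Orai2 and 202 to 260 of Orai3. Capitals mark the 46 of 59 bases that are the same in all 3.
Orai1: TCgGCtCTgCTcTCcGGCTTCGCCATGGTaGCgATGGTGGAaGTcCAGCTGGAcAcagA
Orai2: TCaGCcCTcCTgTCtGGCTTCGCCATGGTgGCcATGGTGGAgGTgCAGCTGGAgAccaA
Orai3: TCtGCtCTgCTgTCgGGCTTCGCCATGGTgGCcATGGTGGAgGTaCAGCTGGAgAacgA
No other gene's transcript matched any of the 8 genes over at least 100 bases at 95% identity or more, by BLAST. Stim1 and Stim2 were 61.0% identical over their coding sequence with a longest shared run of 15 bases, and the TRPC pairs were 55.7% to 58.8% identical.

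Orai2, which forms channels with smaller currents than Orai1 and joins it in mixed channels, was the most abundant Orai transcript in every library. Orai2 (ENSMUSG00000039747, chr5:136147459-136170713, minus strand) stood at 24.8 and 23.2 TPM in K823R and at 23.6 and 20.8 TPM in WT. The groups overlapped, with WT replicate 2 the lowest library. The fitted log2 difference came to 0.11 (SE 0.10, 95% interval -0.17 to 0.38, limma adjusted p = 0.932). It was 0.02 without WT replicate 2 and 0.20 without WT replicate 1. Orai2 held 44.4% and 44.2% of the Orai sum in K823R, against 41.9% and 43.9% in WT (1.36 percentage points, exact permutation p = 0.333). Leaving out WT replicate 1 brought this difference in share to 0.358 points, and leaving out WT replicate 2 brought it to 2.37 points.

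Orai3, the form found in mammals alone, was the steadiest Orai transcript. Orai3 (ENSMUSG00000043964, chr7:127769815-127775150, plus strand) stood at 17.4 and 17.3 TPM in K823R and at 17.3 and 16.97 TPM in WT. The groups overlapped, and the 4 libraries had a coefficient of variation of 1.10%. K823R minus WT was 0.015 on the log2 scale (SE 0.087, 95% interval -0.21 to 0.24, limma adjusted p = 0.99), and its sign turned under upper-quartile and quantile scaling.

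Orai1, the pore of the classical calcium release-activated current, was the least abundant and the most variable of the 3. Orai1 (ENSMUSG00000049686, chr5:123015074-123030456, plus strand) stood at 13.7 and 12.0 TPM in K823R and at 15.4 and 9.57 TPM in WT. The WT libraries enclosed both K823R libraries and differed from each other by 1.61 times. It differed by 0.07 on the log2 scale (SE 0.24, 95% interval -0.55 to 0.69, limma adjusted p = 0.985). Leaving out WT replicate 1 gave 0.39, leaving out WT replicate 2 gave -0.25 and leaving out K823R replicate 1 gave -0.020, so its direction rested on single libraries. The share of Orai1 in the Orai sum was 24.5% and 22.9% in K823R and 27.4% and 20.2% in WT. Orai transcripts together summed to 55.9 and 52.5 TPM in K823R and to 56.4 and 47.3 TPM in WT, or 1.28 and 1.19 times the STIM sum in K823R and 1.35 and 1.14 times in WT.

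The TRPC genes of the set did not separate the genotypes. TRPC1 mostly works as a subunit of mixed channels. Trpc1 (ENSMUSG00000032839, chr9:95705082-95750375, minus strand) stood at 13.9 and 13.1 TPM in K823R and at 13.02 and 14.1 TPM in WT. The groups overlapped and their means, 13.5 ± 0.580 TPM in K823R and 13.6 ± 0.764 TPM in WT (SD, n = 2 each), were nearly equal. The fitted log2 difference came to -0.0016 (SE 0.10, 95% interval -0.27 to 0.26, limma adjusted p = 0.998), nearer to 0 than in all but 0.734% of genes tested. Leaving out K823R replicate 2 gave 0.04 and leaving out WT replicate 2 gave 0.05.

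TRPC6 is opened by diacylglycerol. Trpc6 (ENSMUSG00000031997, chr9:8544142-8680741, plus strand) stood at 5.82 and 4.75 TPM in K823R and at 6.75 and 5.33 TPM in WT. The groups overlapped, with the highest library in WT and the lowest in K823R. K823R minus WT was -0.16 on the log2 scale (SE 0.17, 95% interval -0.62 to 0.30, limma adjusted p = 0.935). The value shrank to -0.016 once WT replicate 1 was left out and to -0.038 once K823R replicate 2 was, and reached -0.28 when K823R replicate 1 and -0.31 when WT replicate 2 was left out.

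TRPC4 is a receptor-operated channel stimulated through Gq- and Gi-coupled receptors. Trpc4 (ENSMUSG00000027748, chr3:54156035-54318471, plus strand) stood at 2.76 and 1.62 TPM in K823R and at 1.93 and 1.69 TPM in WT. K823R held both the highest and the lowest library. It differed by 0.16 on the log2 scale (SE 0.26, 95% interval -0.53 to 0.85, limma adjusted p = 0.955). It rested on K823R replicate 1, without which it was -0.100, while without K823R replicate 2 it was 0.42, without WT replicate 1 it was 0.22 and without WT replicate 2 it was 0.099. Trpc1 held 61.9% and 67.3% of the sum of these 3 genes in K823R and 60.0% and 66.8% in WT, and no share separated the groups. Of other canonical TRPs, Trpc7 stood at 1.72 and 0.66 TPM in K823R and at 0.78 and 1.00 TPM in WT (limma adjusted p = 0.963). Trpc5 was at 0.30 and 0.16 TPM in K823R and at 0.31 and 0.41 TPM in WT. Trpc2, the pheromone channel of the rodent vomeronasal organ, was at 0.26 and 0.64 TPM in K823R and at 0.18 TPM in WT replicate 1, and was listed at 0 in WT replicate 2. Trpc2 and Trpc5 were under the filter of 1 TPM and were not tested.

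**Figure D4:**
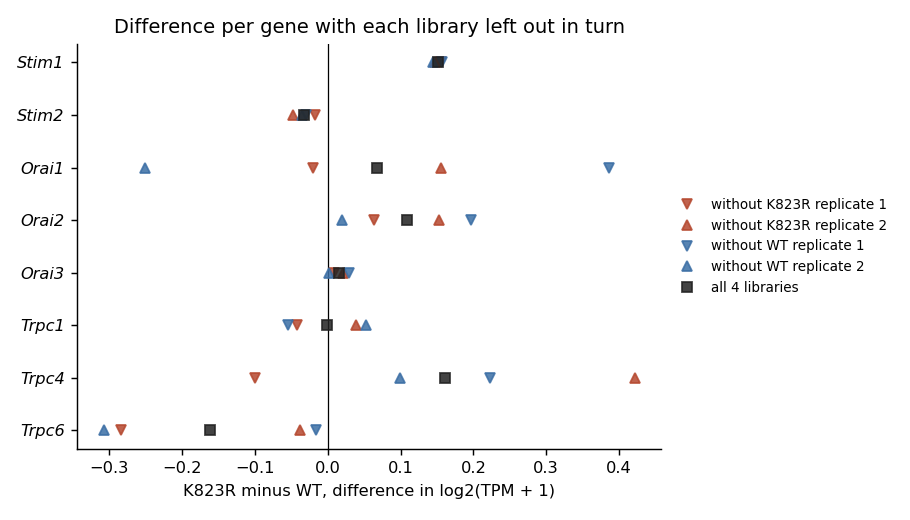
K823R minus WT difference in log2(TPM + 1) (horizontal axis) for each gene with all 4 libraries (squares) and with each library left out in turn (triangles, coloured by the group of the library left out). Stim1 stays between 0.145 and 0.157, whereas Orai1 runs from -0.25 to 0.39 and Trpc4 from -0.100 to 0.42.

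Transcripts of proteins that steer STIM and Orai did not pass the test either. Of 16 listed regulators 15 were tested, with 9 differences above 0 and 6 below, a median log2 difference of 0.028, and 0 past limma at an adjusted or an unadjusted p below 0.05. For 2 of them, Asph and Homer1, the groups did not overlap, both with K823R lower, beside 34.0% of all genes tested in either direction and 14.6% lower in K823R. Leaving out K823R replicate 1 turned the list's median to -0.021, and leaving out WT replicate 2 turned it to -0.076. Asph, whose products include the ER protein junctate that tethers store-operated complexes, stood at 59.2 and 60.03 TPM in K823R and at 64.4 and 72.7 TPM in WT. Its log2 difference was -0.20 with SE 0.09 (limma adjusted p = 0.918), the smallest p of the list. Caveolin 1 (Cav1), a scaffold reported to bind TRPC1, stood at 45.3 and 58.2 TPM in K823R and at 54.1 and 69.3 TPM in WT. The immunophilin genes Fkbp5 and Fkbp4 had means of 29.6 and 446 TPM in K823R and of 34.5 and 421 TPM in WT. Saraf, the inhibitor that turns off STIM-driven entry, was far above the sensors themselves, at 232 and 242 TPM in K823R and at 234 and 224 TPM in WT; Saraf and Homer1 were named outside the rule for named genes, after their values were seen.

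No gene that releases, pumps or buffers ER calcium passed the test. Of 21 listed, 18 were tested, with 13 above 0 and 5 below (57.4% of all genes tested were above 0), a median log2 difference of 0.07, and 0 past limma at an adjusted or an unadjusted p below 0.05. The groups did not overlap for 5 of them. K823R was higher for Ryr3, Mcu, Calr and Canx and lower for Atp2a3, which encodes an ER pump. Over all genes tested the share was 34.0%, with 19.4% higher and 14.6% lower. Atp2a3 lay near the filter of 1 TPM, at 1.24 and 1.14 TPM in K823R and at 1.27 and 1.31 TPM in WT. The far more abundant ER pump gene Atp2a2 overlapped between groups. It stood at 128 and 117 TPM in K823R and at 127 and 107 TPM in WT. Mcu, Atp2a3 and Atp2a2 are named outside the rule for named genes, after their values were seen. The lectin chaperone calnexin (Canx) stood at 246 and 251 TPM in K823R and at 238 and 219 TPM in WT (log2 difference 0.12, SE 0.07, limma adjusted p = 0.918). Calreticulin (Calr), a calcium-binding chaperone of the lumen, stood at 295 and 298 TPM in K823R and at 294 and 261 TPM in WT. Hspa5, the ER chaperone BiP, averaged 196 TPM in K823R and 181 TPM in WT, and the ryanodine receptor Ryr3 averaged 2.52 TPM in K823R and 1.97 TPM in WT. For Canx, Calr, Hspa5 and Ryr3 alike, WT replicate 2 was the lowest library. The list's median was -0.0095 without WT replicate 2.

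Calcineurin and the NFAT factors it activates read sustained Orai-driven calcium, and no gene of that list passed the test. Of 18 listed, 15 were tested, with 9 above 0 and 6 below, a median log2 difference of 0.0061, and 0 past limma at an adjusted or an unadjusted p below 0.05. The groups did not overlap for 4 of them, Cabin1, Nfatc1, Rcan3 and Ppp3ca, each with K823R higher, beside 34.0% of all genes tested in either direction and 19.4% higher in K823R. Cabin1, an inhibitor of calcineurin, stood at 30.1 and 24.7 TPM in K823R and at 23.5 and 18.9 TPM in WT, with a log2 difference of 0.35 and SE 0.15 (limma adjusted p = 0.918). Nfatc1 stood at 2.31 and 4.04 TPM in K823R and at 1.92 and 2.13 TPM in WT. Rcan3, of a family of calcineurin regulators, averaged 32.2 TPM in K823R and 29.4 TPM in WT, and the catalytic subunit Ppp3ca 195 TPM in K823R and 180 TPM in WT. The median was -0.0096 under upper-quartile scaling, -0.010 without K823R replicate 1 and -0.0078 without WT replicate 2.

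**Figure D5:**
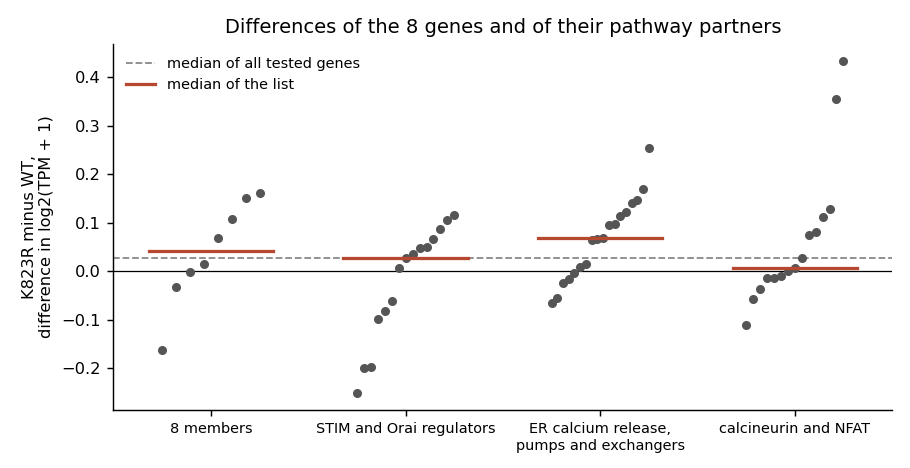
K823R minus WT difference in log2(TPM + 1) (vertical axis) of the 8 genes and of each tested gene of the 3 pathway lists; points are genes, red lines list medians, the dashed line the median of all tested genes (0.026). List medians lie between 0.0061 and 0.07, and single genes between -0.25 (Cav1) and 0.43 (Nfatc1).

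Genes whose levels followed the same 4 libraries most closely were sought for Stim1 and Orai2, the members with the smallest p. Over 8595 other genes averaging 10 TPM or more, leaving out gene models without a standard symbol, Slc38a7, an amino acid transporter, had the highest Pearson's r with Stim1 on the log2 scale (0.9999). It stood at 18.85 and 18.95 TPM in K823R and at 16.1 and 15.9 TPM in WT. Aldoc, a glycolytic aldolase, and Atp5b, the beta subunit of ATP synthase, came next. For Orai2 the closest were the kinase gene Mapk3, the natriuretic peptide gene Nppb and Btbd2, with Nppb at 40.01 and 31.9 TPM in K823R and at 34.1 and 22.4 TPM in WT. With only 4 libraries such likeness is common: r was above 0.99 for 51 genes with Stim1 and for 173 with Orai2.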

How the data were processed

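Messenger RNA from trigeminal ganglia was sequenced in 4 libraries, whose titles give the group. Tools listed in the submitters' processing notes are edgeR, RSEM, HISAT2 and fastp 0.19.5, with the build GRCm38.p6 and no roles. For the annotation release, strand setting and filters, the answer is not given in the sources used here. TPM per gene and library was deposited by the authors, with group means that were not used. The deposited length of all 8 genes equals that of their GENCODE M21 transcript with the longest coding sequence, and gene TPM does not separate isoforms.

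Genes averaging 1 TPM or more were tested with limma 3.58.1 (R 4.3.3) on log2(TPM + 1), with a variance trend, two-sided, Benjamini-Hochberg adjusted over 15390 genes at 0.05. The prior gave 2.67 degrees of freedom beside 2 residual ones. The log2(TPM + 1) scale understates differences of low genes. The test was checked on simulated data. Shares were compared by exact permutation over libraries. Opposite-strand genes overlap Stim1, Stim2, Orai1 and Trpc6, and each is listed at 0 in every library. Coordinates are from GENCODE M21, copies were searched with BLAST 2.17.0, and figures drawn with matplotlib 3.10.9.

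The members and lists were chosen with earlier results of these data known. Named genes were the 8 members, other canonical TRPs, the 4 smallest p of each pathway list, and the 3 genes most like each of 2 members. 1 gene that this rule would have named is not reported here. Alternatives were another pseudocount, filters, scalings, no variance trend, a replicate block, other thresholds and leaving out each library.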

Additional observations from a re-analysis of the deposited data

How the results depend on the processing

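None of the 8 genes passed limma under any alternative run; their adjusted p was never below 0.656. Stim1, Stim2, Orai2 and Trpc6 kept the sign of their difference in each. The Orai3 difference was -0.0006963 under upper-quartile and -0.014 under quantile scaling. With a library left out, Orai1 ran from -0.25 to 0.39, Trpc4 from -0.100 to 0.42 and Trpc1 from -0.055 to 0.052; the cause was not tested. Differences in share then ran from -3.69 to 3.47 points for Orai1, -3.83 to 1.32 for Orai3, 0.358 to 2.37 for Orai2, -2.14 to 4.63 for Trpc1, -6.01 to -0.14 for Trpc6 and -0.14 to 3.802 for Trpc4. List medians ran from -0.076 to 0.097 for the regulators, -0.0095 to 0.14 for ER calcium genes and -0.010 to 0.045 for calcineurin and NFAT, the last -0.0096 under upper-quartile scaling. The count of all genes called, 1 in the chosen setting, was 0 with any library left out (0 to 0), 0 without a filter or a variance trend, 2 among genes averaging 10 TPM or more and 4 at an adjusted p below 0.1. Same-numbered libraries had deviations correlated at r = 0.05 over genes, and the labels tie the numbers to no animal, litter or day, so the numbers were not taken to pair the libraries. With the replicate block 0 genes were called and Stim1 had a limma adjusted p of 0.748. Trpc4 and Trpc6 fall under the stricter filter. Depth cannot be read from TPM. With 2 libraries a group, intervals were as wide as a ratio of 0.694 to 1.80 for Trpc4. That ratio is on the (TPM + 1) scale, which understates differences of low genes.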
